A study of Homo sapiens with 17 samples.

Results

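The genes described here are 9 regulators of 2 repressive chromatin systems, Polycomb and DNA methylation: EZH2, EZH1, SUZ12, EED, BMI1, CBX7, KDM6B, DNMT1 and UHRF1. They were chosen by symbol, and all 9 were found among the 9699 transcripts of the expression table, which holds 1 transcript per gene. The cells were BJ cells, human foreskin fibroblasts immortalized with hTERT, and mRNA level (RNA-Seq) and ribosome occupancy of the coding sequence (Ribo-Seq) were measured in parallel. Sequencer run 1 held proliferating cells in normal medium, cells made quiescent by serum depletion, and pre-senescent cells carrying a tamoxifen-inducible RASG12V that had been switched on with 4-OHT-tamoxifen for 5 days. Run 2 held another proliferating culture, senescent cells after 14 days of the same induction, and transformed cells that carried stable knockdowns, p16INK4A among them, and SV40 small T and had been transduced with a retrovirus for RASG12V. The knockdowns, small T and retroviral RAS therefore come together in the transformed cells and cannot be told apart.

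Polycomb proteins keep genes silent through marks on histones. Polycomb repressive complex 2 (PRC2) places methyl groups on histone H3: EZH2 or its paralog EZH1 is the catalytic subunit, and SUZ12 and EED are the core partners that the enzyme needs for activity. PRC1 contains BMI1, a RING-finger partner of its ubiquitin ligase, and CBX7, a chromodomain protein that reads the mark left by PRC2. KDM6B (JMJD3) is a demethylase that removes that mark. DNMT1 copies DNA methylation onto newly replicated strands, and UHRF1 recognises half-methylated DNA and brings DNMT1 to it. In fibroblasts, the best-known Polycomb target in this context is the INK4 locus with CDKN2A, which encodes the cell-cycle inhibitor p16INK4A.

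Levels are FPKM, fragments scaled to transcript length and to library size, so they can be compared between genes, and a value under 1 was set to 1. Translation efficiency (TE) is the log2 ratio of Ribo-Seq to RNA-Seq FPKM. Each condition had 1 value per assay: the run 1 proliferation and quiescence values and the pre-senescence RNA value are the authors' values for 2 combined replicates, and the others come from single libraries. No difference below has a replicate check or a p-value. A gene was called past 2-fold when its log2 difference was at least 1 in size, and the share of all 9699 genes past the same fold is given beside each count. The 2 proliferating cultures show how far a gene moved between runs with no change of condition. The RNA libraries also differed in type: by the paper, those of run 1 were paired-end and those of run 2 were not. Between them, 7.83% of genes differed at least 2-fold in RNA, 18.5% in Ribo-Seq and 9.69% in TE. Of the members, DNMT1 and UHRF1 did so in RNA, SUZ12, DNMT1 and UHRF1 in Ribo-Seq, and SUZ12 in TE.

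Several values bear on the labels. For the Ribo-Seq samples titled S and C3, the condition field gives the reverse of the title, proliferation for S and senescence for C3. The table's columns carry the titles, and the titles were followed, so senescence and run 2 proliferation in Ribo-Seq mean the libraries so titled. MKI67, CDK1 and MCM2, genes of dividing cells, were at 1.00, 1.65 and 3.25 FPKM in the Ribo-Seq library titled S and at 43.0, 96.7 and 34.1 in the one titled C3. In RNA they were at 1.0, 1.0 and 3.19 FPKM in senescence and at 44.0, 35.1 and 26.2 in run 2 proliferation, the same order as by the Ribo-Seq titles. All 10 fibroblast markers were in the table, and their summed RNA level ranged from 5498 to 8207 FPKM, of which VIM made up 2956 to 4881. In RNA, 5 of the 10 were at least 2-fold lower in pre-senescence, 7 in senescence and 3 in transformed cells than in proliferation of the same run, and 5 were at least 2-fold higher in run 2 than in run 1 proliferation. The run 2 proliferating culture also stood apart in KRT19 RNA, at 39.8 FPKM against 1.00 to 4.43 in the other conditions, and the part of these differences in the members' values was not tested. Of the other cell types' markers, KRT8, KRT18 and KRT19 (3 of 5 epithelial) and CD14 and CD68 (2 of 4 haematopoietic) had rows, with summed RNA levels of 105 to 313 and 39.3 to 134 FPKM, and none of the 3 endothelial markers did. MKI67 RNA stood at 73.9 and 44.0 FPKM in the proliferating RNA values, 32.8 in quiescence, 37.0 in pre-senescence, 29.2 in transformed cells and at the floor of 1 in senescence. CDKN2A RNA in the column labelled transformed was 12.6 FPKM, above the 6.75 of run 2 proliferation, so the p16INK4A knockdown is not seen in RNA against that control. The same RNA value was below the 17.2 of run 1 proliferation. In Ribo-Seq, CDKN2A was at 5.51 FPKM in transformed cells and 8.92 in run 2 proliferation. HRAS RNA was between 1254 and 2415 FPKM in every condition other than transformed, where it was 312, although the labels name a RAS construct only in the pre-senescent, senescent and transformed cells.

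The promoters of the members are shown because EZH2, UHRF1 and DNMT1 were the members whose RNA was lowest in senescence relative to proliferation. RefSeq start sites (GRCh38.p14) gave 14 windows for the 9 genes, each from 250 bases before to 50 bases after the start. The 8-base E2F-type sequence was searched on both strands in 4 spellings, TTTCCCGC, TTTCGCGC, TTTGCCGC and TTTGGCGC, a choice made after the expression values were known. It was present for 5 of the 9 members, EZH2, EZH1, SUZ12, DNMT1 and UHRF1, against 7.2% of the 7292 genes of the table that had a window and 3.31% of all 35116 windows. The matches are printed 5′ to 3′ on the gene's strand with 11 bases on each side and the match in capitals.
EZH2: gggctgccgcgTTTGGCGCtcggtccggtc
DNMT1: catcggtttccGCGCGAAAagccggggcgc
UHRF1: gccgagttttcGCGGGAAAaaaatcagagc
SUZ12: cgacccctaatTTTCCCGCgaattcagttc
EZH1: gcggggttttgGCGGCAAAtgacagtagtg

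These segments lie at chr7:148884272-148884301 (minus strand) for EZH2, chr19:10194937-10194966 (minus) for DNMT1, chr19:4909476-4909505 (plus) for UHRF1, chr17:31936807-31936836 (plus) for SUZ12 and chr17:42745137-42745166 (minus) for EZH1. The match began at position 2 in EZH2 and at -2 in DNMT1, where it spanned the start, and ran from -14 to -7 in UHRF1, where 1 is the first transcribed base. In SUZ12 and EZH1 it was further upstream, beginning at -189 and -115. UHRF1 had another match at -160 of its second RefSeq start. The windows of EED, BMI1, CBX7 and KDM6B did not hold these letters. A match is a description of the sequence and does not show that a factor binds there.

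EZH2, the main PRC2 methyltransferase of dividing cells, and UHRF1 had the largest RNA differences in senescence among the members, with EZH2 first against run 2 proliferation and UHRF1 first against run 1 proliferation. The EZH2 RNA level (ENST00000320356) was 17.6 FPKM in run 1 proliferation, 7.06 in quiescence and 9.45 in pre-senescence, and in run 2 it was 13.4 in proliferation, 1.62 in senescence and 11.1 in transformed cells. Senescence stood far below every other value, and quiescence was the next lowest. The senescent level was 8.27-fold lower than in run 2 proliferation, a log2 difference of -3.05, and 173 of the 9699 genes had a difference as low or lower. Quiescence was 2.50-fold below run 1 proliferation, with 64 genes as low or lower. Pre-senescence was 1.86-fold below it, which does not pass 2-fold. In the order of RNA levels, run 1 proliferation, run 2 proliferation, transformed and pre-senescence were separated by steps of at most 0.40 in log2, no more than the gap between the proliferating cultures, whereas the step from quiescence down to senescence was 2.12.

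Ribosome occupancy of EZH2 followed its RNA in quiescence, senescence and transformed cells. It was 13.6 FPKM in run 1 proliferation, 5.16 in quiescence, 11.4 in pre-senescence, 13.1 in run 2 proliferation, 1.27 in senescence and 9.09 in transformed cells. The library titled senescence was again the lowest, 10.3-fold below run 2 proliferation, and close to the floor of 1. If the condition fields rather than the titles were right, the same difference would be 3.37 in log2 with senescence higher. The MKI67, CDK1 and MCM2 values given above had the order of the titles. In pre-senescence the Ribo-Seq log2 difference was -0.26 where the RNA difference was -0.90, so the TE difference was 0.64. The TE difference was -0.08 in quiescence, -0.32 in senescence and -0.26 in transformed cells.

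EZH1, the paralog that is expressed in resting as well as dividing tissue, had no condition past 2-fold in RNA. Its RNA level (ENST00000428826) was 9.76 FPKM in run 1 proliferation, 11.9 in quiescence, 8.94 in pre-senescence, 8.10 in run 2 proliferation, 7.58 in senescence and 10.6 in transformed cells. No step in this order exceeded the gap of 0.27 in log2 between the proliferating cultures, though the highest value was 1.57-fold the lowest. The ratio of EZH2 to EZH1 RNA lay on both sides of 1. It was 1.81 and 1.65 in the proliferating cultures, 1.06 in pre-senescence and 1.05 in transformed cells, but 0.593 in quiescence and 0.214 in senescence. In Ribo-Seq the ratio was 3.0 and 3.10 in the proliferating cultures, 1.28 in quiescence, 1.10 in pre-senescence, 1.37 in transformed cells and 0.287 in senescence. EZH1 was thus the paralog with the higher level of both RNA and ribosome-protected fragments in senescence, and of RNA but not fragments in quiescence.

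The core partners of the enzyme moved less than EZH2. SUZ12 RNA (ENST00000322652) was 16.5, 13.3 and 15.9 FPKM in proliferation, quiescence and pre-senescence of run 1, and 16.7, 9.67 and 14.4 in proliferation, senescence and transformed cells of run 2. Senescence was the lowest, 1.72-fold below its control, and this is short of 2-fold. EED RNA (ENST00000351625) was 12.7, 7.92 and 13.3 FPKM in run 1 and 12.8, 9.09 and 14.9 in run 2. Here quiescence was the lowest, 1.60-fold below its control, and senescence came next at -0.49 in log2. Between the proliferating cultures, RNA differed by 0.01 in log2 for SUZ12 and 0.00 for EED. Each is a single gap, and the SD of that difference over all genes was 0.62. In senescence, 16.7% of all genes had an RNA difference as low as that of SUZ12 or lower, and 26.0% for EED. In quiescence the share for EED was 6.42%. Because both partners moved less, the EZH2 to SUZ12 RNA ratio was 0.168 in senescence against 0.804 in run 2 proliferation, and the EZH2 to EED ratio was 0.178 against 1.05.

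SUZ12 showed how far Ribo-Seq values can move between runs. Its Ribo-Seq level was 9.62 FPKM in run 1 proliferation, 10.1 in quiescence and 20.5 in pre-senescence, and 19.9, 13.2 and 19.4 in proliferation, senescence and transformed cells of run 2. The 2 proliferating cultures differed 2.07-fold in Ribo-Seq and by 0.01 in log2 RNA. Pre-senescence was 2.13-fold above its own control, a distance no larger than 1.09 in log2 beside a gap of 1.05 between the proliferating cultures. EED Ribo-Seq was 20.0, 10.3 and 15.5 FPKM in run 1 and 20.5, 15.0 and 22.8 in run 2, in the same order of conditions. It was lowest in quiescence, 1.95-fold below proliferation, the same condition as its RNA.

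DNMT1, the maintenance methyltransferase, and UHRF1, its recruiter, had almost the same pattern as each other. DNMT1 RNA (ENST00000359526) was 92.8 FPKM in run 1 proliferation, 44.5 in quiescence and 62.4 in pre-senescence, and in run 2 it was 44.9 in proliferation, 13.5 in senescence and 45.9 in transformed cells. UHRF1 RNA (ENST00000398240) was 85.6, 41.4 and 51.4 FPKM in run 1, and 41.4, 5.43 and 46.8 in run 2, in the same order. Senescence was lowest for both and lay below every other value. It was 3.33-fold below run 2 proliferation for DNMT1 and 7.62-fold for UHRF1, with 556 and 193 of the 9699 genes as low or lower. Against the run 1 culture the senescence differences were larger, at -2.78 and -3.98 in log2.

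The quiescence values of these genes depend on the control. Against run 1 proliferation, DNMT1 RNA was 2.08-fold lower in quiescence and UHRF1 RNA 2.07-fold lower. The 2 proliferating cultures differed from each other by the same amount, 2.07-fold for both genes. Set against the run 2 culture, the quiescence differences were -0.01 and 0.00 in log2. In the order of RNA levels, the step from quiescence to senescence, 1.72 in log2 for DNMT1 and 2.93 for UHRF1, was the only one larger than the gap between the proliferating cultures.

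Ribo-Seq of DNMT1 was 96.5, 56.9 and 82.8 FPKM in proliferation, quiescence and pre-senescence of run 1, and 47.4, 15.6 and 49.7 in proliferation, senescence and transformed cells of run 2. Ribo-Seq of UHRF1 was 215, 114 and 102 FPKM in run 1 and 63.5, 6.04 and 69.1 in run 2. The library titled senescence was 3.04-fold below run 2 proliferation for DNMT1 and 10.5-fold for UHRF1. With the 2 titles exchanged these would be 1.60 and 3.39 in log2 with senescence higher. The 2 proliferating cultures differed 3.39-fold for UHRF1 in Ribo-Seq, more than in RNA. In pre-senescence, UHRF1 Ribo-Seq was 2.10-fold below the run 1 control, and it would be 0.69 in log2 above the run 2 culture. The ratio of UHRF1 to DNMT1 RNA stayed between 0.823 and 1.02 in 5 of the 6 values and was 0.403 in senescence. In Ribo-Seq it was 1.23 to 2.23 in the same 5 conditions and 0.387 in senescence.

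The PRC1 members had smaller differences in RNA. BMI1 RNA (ENST00000376663) was 18.8, 16.6 and 18.7 FPKM in proliferation, quiescence and pre-senescence of run 1 and 13.1, 11.2 and 12.1 in proliferation, senescence and transformed cells of run 2. Within each run the values lay close together, and every step was smaller than the gap of 0.52 in log2 between the proliferating cultures. In Ribo-Seq BMI1 was 13.5 FPKM in run 1 proliferation, 6.29 in quiescence and 7.17 in pre-senescence, against 8.46, 7.89 and 8.14 in run 2. The run 1 proliferation value was above all the others, which lay between 6.29 and 8.46. Quiescence was 2.14-fold below it in Ribo-Seq, with a TE difference of -0.92, and pre-senescence was 1.88-fold below it, with a TE difference of -0.90.

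CBX7 was a low-level transcript. Its RNA (ENST00000216133) was 3.22 FPKM in run 1 proliferation, 4.42 in quiescence and 1.79 in pre-senescence, and 3.69, 2.86 and 3.11 in proliferation, senescence and transformed cells of run 2. Pre-senescence was the lowest, 1.80-fold below its control, and quiescence was the highest, 1.37-fold above it. Ribo-Seq was also lowest in pre-senescence, at 2.44 FPKM, but its highest value was 5.78 in run 2 proliferation, with quiescence next at 5.47. It was 3.97 in run 1 proliferation, 3.57 in senescence and 4.44 in transformed cells. No CBX7 difference passed 2-fold against the control of its run.

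KDM6B, the demethylase that works against PRC2, differed from the methyltransferase in direction. Its RNA (ENST00000254846) was 3.30 FPKM in run 1 proliferation, 3.40 in quiescence and 3.99 in pre-senescence, and 3.20, 4.95 and 6.35 in proliferation, senescence and transformed cells of run 2. The 3 conditions labelled with RASG12V had the highest values, and transformed cells were 1.98-fold above their control, just short of 2-fold, with 493 of 9699 genes as high or higher. Senescence was 1.55-fold above it. The proliferating cultures differed by 0.04 in log2. The ratio of EZH2 to KDM6B RNA was 5.34 and 4.18 in the proliferating cultures, 1.75 in transformed cells and 0.327 in senescence.

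Ribo-Seq of KDM6B was at the floor of 1 FPKM in both proliferating cultures and in quiescence, and was 1.29 in senescence and 1.06 in transformed cells. Only in pre-senescence, at 3.45 FPKM, was it clear of the floor. Its TE differences, 1.51 in pre-senescence and -0.90 in transformed cells, rest on values at or near the floor. The higher KDM6B RNA in transformed cells thus had no counterpart above the floor in Ribo-Seq.

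In RNA, 3 of 9 members, EZH2, DNMT1 and UHRF1, were at least 2-fold lower in senescence than in run 2 proliferation, where 13.0% of all genes were, and none was 2-fold higher (7.08% of genes). The median of the 9 log2 differences was -0.49, beside 0.00 over all genes. In Ribo-Seq the same 3 members were lower, where 16.6% of all genes were. No member passed 2-fold in TE, as 9.43% of genes did in either direction, and the 9 TE differences lay between -0.46 and 0.20. Against run 2 proliferation and by the titles, the lower occupancy of EZH2, DNMT1 and UHRF1 in senescence was therefore within 2-fold of the lower RNA level. The EZH2 Ribo-Seq value in senescence, 1.27 FPKM, was near the floor. For UHRF1 the size depends on the control: its TE was 0.15 in senescence, 0.62 in run 2 proliferation and 1.33 in run 1 proliferation. Genes of dividing cells were low in the same columns: all 7 proliferation markers in the table, MKI67, CCNA2, CCNB1, CDK1, MCM2, RRM2 and E2F1, were at least 2-fold lower in senescence in RNA, and their part in the members' values was not tested. As RNA was taken from whole cultures, fewer expressing cells and less RNA per cell cannot be told apart.

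In transformed cells no member passed 2-fold against run 2 proliferation in RNA, Ribo-Seq or TE, where 10.2%, 12.6% and 3.41% of genes did in either direction. EZH2 was 1.21-fold lower in RNA, DNMT1 1.02-fold and UHRF1 1.13-fold higher. Compared directly with senescence in the same run, EZH2 RNA was 6.85-fold higher in transformed cells, UHRF1 8.62-fold and DNMT1 3.40-fold, so 3 of 9 members were past 2-fold where 15.1% of genes were. All 9 members had a higher RNA value in transformed than in senescent cells, with the other 6 between 0.11 and 0.71 in log2. At the ends of that range, 48.9% and 22.4% of all genes were as high or higher. The median of the members was 0.57 beside 0.08 over all genes, so the median gene was higher too. In Ribo-Seq the same 3 members were at least 2-fold higher, by 7.16-fold, 11.4-fold and 3.19-fold, where 17.3% of genes were. No member passed 2-fold in TE, where 6.61% of genes did in either direction. The comparisons with run 2 proliferation and with senescence share samples.

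In quiescence, EZH2, DNMT1 and UHRF1 were at least 2-fold lower in RNA than run 1 proliferation, 3 of 9 members where 2.37% of genes were. None of the 3 passed 2-fold against the run 2 culture, where EZH2 was at -0.92, or with log2(FPKM + 5), where they lay between -0.98 and -0.91. The 7 proliferation markers were all at least 2-fold lower in quiescence RNA as well, and their part in the members' values was not tested. The median over the members was -0.32, beside 0.00 over all genes. In Ribo-Seq EZH2 and BMI1 were at least 2-fold lower, 2 of 9 members where 8.02% of genes were. No member passed 2-fold in TE (7.89% of genes in either direction). In pre-senescence no member passed 2-fold in RNA, where 3.77% of genes did in either direction, and EZH2, CBX7 and UHRF1 were the lowest at -0.90, -0.85 and -0.74.

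Pre-senescence was the only condition in which members passed 2-fold in TE against the control of the same run. Short of 2-fold, BMI1 TE differed about as much in quiescence, at -0.92, as in pre-senescence, at -0.90. EZH1, SUZ12 and KDM6B were at least 2-fold higher in Ribo-Seq, 3 of 9 members where 7.13% of genes were, and UHRF1 was 2-fold lower, where 10.3% of genes were. The UHRF1 value did not pass 2-fold once the median of all genes was set to 0, at -0.97, and changed direction with the run 2 culture, as given above. EZH1 Ribo-Seq was 10.3 FPKM in pre-senescence and between 4.04 and 6.65 in the other 5 conditions. The same 3 members passed 2-fold in TE, with differences of 1.31, 1.15 and 1.51, where 5.7% of genes did in that direction. Set against the run 2 culture, SUZ12 was no longer past 2-fold, at 0.05 in Ribo-Seq and 0.12 in TE, while EZH1 was at 1.29 and 1.14. KDM6B was at 1.79 and 1.47, but its Ribo-Seq was at the floor in both proliferating cultures. Its Ribo-Seq difference was therefore bound to be the same with either control, and the change of control does not check it. The single pre-senescence Ribo-Seq library differed from its control across the whole table too, with a median log2 difference of -0.10 in Ribo-Seq and -0.13 in TE, and 14.5% of genes past 2-fold in TE.

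**Figure D1:**
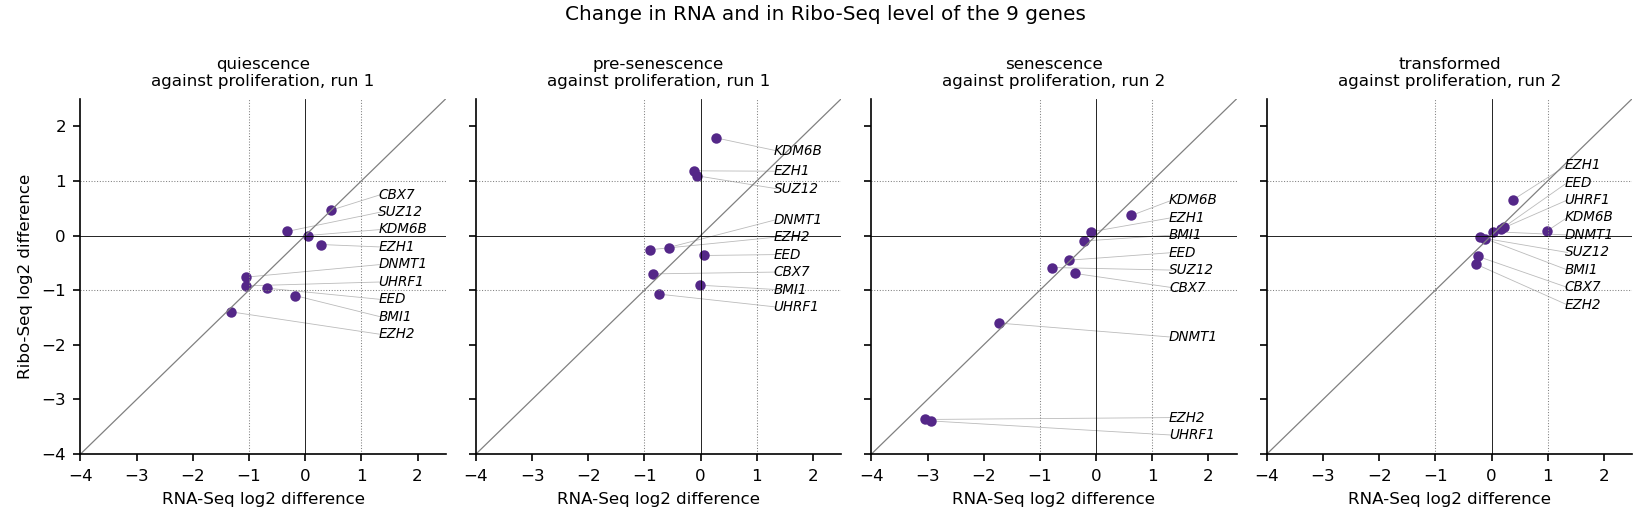
Log2 difference in RNA-Seq (x axis) and in Ribo-Seq (y axis) of the 9 members in the 4 comparisons with proliferation of the same run; the diagonal marks equal change and dotted lines mark 2-fold. In senescence the members lie near the diagonal, with EZH2 at -3.05 and -3.37, whereas in pre-senescence EZH1, SUZ12 and KDM6B lie above it.

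From day 5 to day 14 of RAS induction, each against its own run's control, the RNA difference shifted by -2.15 in log2 for EZH2 and by -2.19 for UHRF1. The shift was -1.16 for DNMT1, -0.72 for SUZ12 and 0.03 for EZH1. These steps cross runs, and the days also differ in their control culture, which cannot be told apart from the time.

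The level of translation efficiency separated the members more than the conditions did. UHRF1 had the highest TE in run 1, at 1.33 in proliferation and 1.46 in quiescence, and KDM6B had the lowest in 5 of the 6 conditions, from -2.58 to -1.68, with its Ribo-Seq values there at or near the floor. BMI1 was below 0 in all 6 conditions, from -1.40 to -0.48, and EZH1 in 5 of 6, from -1.56 to -0.67, with pre-senescence at 0.20. EED, CBX7, DNMT1 and UHRF1 were above 0 in all 6. The median TE of all genes was between 0.22 and 0.40.

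Other genes of the same systems were described from 6 lists with 63 names, of which 50 were in the table. In senescence, 3 of the 50 were at least 2-fold lower in RNA and 1 was higher, where 13.0% and 7.08% of all genes were, and the median was -0.34 beside 0.00 over all genes. In transformed cells 1 was higher and 1 lower, where 4.92% and 5.33% of all genes were, with a median of 0.14 beside 0.09. Among 8 PRC2 partners, PHF19, a Polycomb-like protein that helps bring PRC2 to chromatin, was 17.4 FPKM in run 2 proliferation, 2.94 in senescence and 20.3 in transformed cells, a log2 difference of -2.56 in senescence. The histone-binding partners RBBP4 and RBBP7 had differences of -0.63 and -0.91.

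Among 21 PRC1 genes, PCGF5, a RING-finger partner related to BMI1, was lower in both RAS states of run 2, at 7.32 FPKM in proliferation, 3.08 in senescence and 3.27 in transformed cells. No other PRC1 gene passed 2-fold in RNA in these comparisons. Of 7 genes of the Polycomb deubiquitinase and of mark removal, FOXK2 passed 2-fold, at 13.8 FPKM in proliferation and 27.8 in transformed cells. That call depends on the control, as FOXK2 was at 22.6 FPKM in run 1 proliferation. Among 11 writers and readers of DNA methylation, PCNA, the replication clamp to which DNMT1 binds, was 114 FPKM in proliferation, 29.3 in senescence and 68.4 in transformed cells, a log2 difference of -1.96 in senescence. The DNA demethylation genes TET2 and TDG had differences of -0.97 and 0.14 in senescence.

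CDKN2A, from the INK4 locus, had RNA levels of 17.2 FPKM in run 1 proliferation, 30.6 in quiescence and 14.2 in pre-senescence, and 6.75, 27.9 and 12.6 in proliferation, senescence and transformed cells of run 2. It was highest in quiescence and senescence, the conditions with the lowest EZH2, and a link between these levels was not tested. Senescence was 4.14-fold above its control in RNA. That size depends on the control, as run 2 proliferation was at -1.35 in log2 against run 1 proliferation. The senescent 27.9 FPKM stands beside 17.2 in the run 1 culture. In run 1 its Ribo-Seq had the same order as its RNA, with 13.0, 33.1 and 7.05 FPKM in proliferation, quiescence and pre-senescence. In run 2 it did not, with 8.92 in proliferation, 6.33 in senescence and 5.51 in transformed cells. The locus also makes the ARF transcript from shared exons, and the row does not separate the products.

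Likeness in RNA pattern was taken as Pearson's r of log2 FPKM over the 6 RNA values, among 5918 other genes with a mean of at least 10 FPKM, and is a description of 6 points that share 2 runs. The genes most like EZH2 were CCNF, ANP32B, CDCA4, KIF23 and INCENP, with r of 0.997 to 0.999. Those most like UHRF1 were WHSC1, NCAPD2, PRR11, MCM2 and CDCA7L, with r of 0.998 to 0.999. For EZH1 they were NFE2L2, CYTH2, TRIM25, ZNF428 and RNF213 (0.960 to 0.984), and for CBX7 RALGAPB, GNAS, TMEM87B, PPM1A and RNPEPL1 (0.938 to 0.983). Among the members, r was 0.982 between DNMT1 and UHRF1, 0.966 between EZH2 and UHRF1 and 0.969 between EZH2 and SUZ12, against 0.417 between EZH2 and EZH1 and -0.38 between EZH2 and KDM6B.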

How the data were processed

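RNA-Seq and Ribo-Seq were applied to BJ cells in 5 conditions, in 17 samples. The authors aligned reads with Bowtie to 1 Ensembl transcript per gene (the submitters' processing notes name Bowtie and build hg19), kept uniquely mapped reads, and deposited FPKM values with those under 1 set to 1; RNA-Seq used the whole transcript and Ribo-Seq the coding sequence. Transcripts had to reach a minimum number of reads in both assays in some condition. How the replicates of run 1 were combined is not given in the sources used here. The table holds no read counts, so the number of reads behind each gene's value is unknown. The paper lists the reads of each library, and the pre-senescence Ribo-Seq library was among those with the fewest outside rRNA.

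From it, log2 differences were taken between columns of the same run, following the study's design, and TE as log2 Ribo-Seq minus log2 RNA-Seq (Python 3.11.15, pandas 2.3.3). With 1 value per condition no test was run, and no filter was added. The procedure was tested on simulated data. Named genes were all 9 members, list genes past 2-fold in RNA in senescence or transformed cells, and the 5 genes of highest r for each of EZH2, EZH1, CBX7 and UHRF1; RBBP4, RBBP7, TET2 and TDG were added after their values were seen. The members and lists were chosen with earlier results of these data known. Alternatives changed the pseudocount, a filter, centring, the fold, the control and the 2 Ribo-Seq labels in conflict. Promoter sequences are RefSeq's (GRCh38.p14), matched by symbol for 9 of 9 members, and no other coordinates are given because the builds differ. One check of a knockdown is not reported here.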

Additional observations from a re-analysis of the deposited data

Results flagged for a closer look

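CBX7 RNA and EZH1 TE had opposite signs in the 2 conditions of run 1, each larger than the per-library SD of 0.44 in log2 derived from the proliferating cultures. The SD of the difference between those cultures over all genes was 0.62 for RNA and 0.63 for TE, larger than both quiescence values. CBX7 RNA was 0.46 in log2 above proliferation in quiescence and -0.85 in pre-senescence. EZH1 TE was -0.45 in quiescence and 1.31 in pre-senescence. The difference between the conditions was not tested, because each has 1 value.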

How the results depend on the processing

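No paired analysis was possible because the table gives 1 value per condition and assay, with replicates already combined, and for the same reason no replicate could be left out. The finding of 3 members lower in senescence in RNA was the same with either pseudocount, the filter, centring and the other control. The cause of the changes below was not tested. With the Ribo-Seq samples S and C3 exchanged, the senescence Ribo-Seq count became 3 higher, with EZH2, DNMT1 and UHRF1 at 3.37, 1.60 and 3.39, and its TE count 5; transformed against proliferation became 3 in Ribo-Seq and 4 in TE, and transformed against senescence 0 and 3, with EZH2 Ribo-Seq at -0.53. With proliferation of the other run, the quiescence counts became 0 in RNA and 1 in Ribo-Seq, the pre-senescence RNA count 1 (CBX7, at -1.04) and its UHRF1 Ribo-Seq difference 0.69, the senescence TE count 2, and the transformed counts 1 in RNA, 2 in Ribo-Seq and 1 in TE. With log2(FPKM + 5), which shrinks low values, the quiescence counts became 0 in RNA and 0 in Ribo-Seq, and the pre-senescence counts 1 in Ribo-Seq and 0 in TE. With log2(FPKM + 1) the quiescence Ribo-Seq count became 1. Keeping genes with a mean of at least 10 FPKM left 4 members in Ribo-Seq and made the quiescence Ribo-Seq count 0 and the pre-senescence counts 2 in Ribo-Seq and 1 in TE. At 1.5-fold the quiescence counts were 5 in Ribo-Seq and 1 in TE, pre-senescence 3 in RNA and 5 in TE, senescence 5 in RNA and 5 in Ribo-Seq, transformed 1 in RNA, 1 in Ribo-Seq and 1 in TE, and transformed against senescence 5 in Ribo-Seq and 1 in TE. Of 567 member differences under these settings, 477 moved by less than 1 SD, taken from the difference of the proliferating cultures over all genes (0.44 in log2 for RNA, 0.59 for Ribo-Seq and 0.44 for TE). The 477 include all 135 under centring, which shifts every gene by the same small amount. With the other control 72 moved by less than 1 SD, 35 moved further and 1 changed direction. With the exchange these numbers were 20, 30 and 4. Changing the control moves a gene by its gap between the proliferating cultures, by the same size in every comparison. The SD comes from the same gaps, so the numbers for the other control repeat them and are not separate checks.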
